A study of Homo sapiens with 6 samples.

Results

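The YAP-TEAD genes examined here are 10 of the 58735 genes in the deposited tables, chosen by name: YAP1, WWTR1, TEAD1, TEAD4, CYR61, CTGF, ANKRD1, AMOTL2, LATS2 and AJUBA. All 10 were found once in the tables, which use the older symbols CYR61 (now CCN1) and CTGF (now CCN2), and all passed the filter on low counts. RNA-seq measured them in cells of MDA-MB-231, an established human triple-negative breast cancer cell line of wild-type genotype, grown in high-glucose DMEM with serum. Cells had been stained with PKH26, a membrane dye that is diluted as cells divide, and grown for a further 12 days. Slow-cycling cells (SCC, 3 libraries) were the 1% with the strongest dye signal, and rapid-cycling cells (RCC, 3 libraries) had a moderate signal per the protocol and a low one per the sample characteristics. The libraries of each group are called biological replicates, and both groups were stained, chased and sorted. The labels do not say whether these were separate cultures, so p-values measure only the spread between these libraries, which may be technical.

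YAP1 and WWTR1 (the gene for TAZ) encode transcriptional coactivators that do not bind DNA themselves. They act through the TEAD transcription factors, and the Hippo kinases MST1/2 and LATS1/2 hold them out of the nucleus by phosphorylation. In breast cancer cells YAP and TAZ are known for driving growth, and YAP-TEAD complexes often share enhancers with AP-1. CYR61 and CTGF, secreted matricellular proteins of the CCN family, are the targets most often used to read the pathway's activity.

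TEAD factors recognise the letters GGAATG, which recur upstream of CTGF. On the other strand a match reads CATTCC. The stretch below is shown because this gene, the standard readout of YAP-TEAD activity, was nearly level between the groups. It runs from base -250 to -2 before the RefSeq start of CTGF, on the minus strand of chr6:131951374-131951622 (GRCh38.p14), with each match in capitals.
CTGF: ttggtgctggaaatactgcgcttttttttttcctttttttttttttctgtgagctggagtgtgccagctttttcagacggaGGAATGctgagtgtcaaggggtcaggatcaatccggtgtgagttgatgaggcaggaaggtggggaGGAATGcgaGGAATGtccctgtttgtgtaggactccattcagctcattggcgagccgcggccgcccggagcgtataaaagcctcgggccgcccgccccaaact
Its 3 matches begin at -169, -104 and -95. Shorter stretches show the matches of ANKRD1 and AMOTL2, the targets with the lowest and highest fitted difference among the 10 genes, with 10 bases on either side.
ANKRD1 at -220, chr10:90921292-90921317, minus strand: caccaccaaaGGAATGgccctctcac
ANKRD1 at -128, chr10:90921200-90921225, minus strand: cactgagtctGGAATGaaaattcacc
AMOTL2 at -69 of its second start, chr3:134374501-134374526, minus strand: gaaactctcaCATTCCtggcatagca
The letters at -128 of ANKRD1 and at -69 of AMOTL2 lie in annotated GENCODE exons of these genes, before the RefSeq start used here, and those at -220 of ANKRD1 do not. RefSeq promoter windows matched 7 of the 10 genes, with 10 starts between them. CYR61, TEAD1 and TEAD4 had no window and were not searched. On both strands, at least 1 match to the TEAD letters lay in the 250 bases before the start in 11.9% of all 34943 windows of that length, at least 2 in 0.942% and at least 3 in 0.083%. Besides the stretches shown, YAP1 had 1 match and the second start of AJUBA had 1, in a window that lies wholly within annotated AJUBA exons. The AP-1 letters TGACTCA or TGAGTCA, found in 4.22% of all windows, were in none of the 10 windows of these genes.

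Summed counts ranged from 17655855 to 27831824 per library. SCC replicate 1 stood apart from the other libraries of its group. Across the tested genes its median log2 deviation from the mean of the 6 libraries was -0.24 in the decile of lowest GC content and 0.41 in the decile of highest, against -0.16 to 0.10 in the other libraries. Results are therefore given with and without it where it matters. The cell line was checked against its markers. VIM was at 752 to 835 CPM (the count divided by the library's TMM-scaled total, per 1e+06) and CD44 at 336 to 367, ESR1 was below 0.7 CPM in every library and PGR was at 0 in 5 of the 6 libraries. ERBB2, the third receptor gene, was at 71.3 to 106 CPM and the luminal factor GATA3 at 6.96 to 10.2 CPM, both highest in SCC replicate 1. The 5 leukocyte markers summed to at least 0.573 CPM and were highest in SCC replicate 1, where PTPRC was at 1.97.

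Between SCC and RCC, 0 of the 10 genes were called, where a call is a Benjamini-Hochberg adjusted p below 0.05 in the quasi-likelihood test of edgeR. Of all 15881 tested genes 328 were called, or 2.07%, and a count of 0 among 10 is near that background. The unadjusted p was below 0.05 for 4 of the 10, AMOTL2, AJUBA, ANKRD1 and TEAD1, against 19.7% of all tested genes. DESeq2 called 1, AMOTL2, against 4.09% of all tested genes. The libraries of SCC and RCC did not overlap in 5 of the 10 genes, CYR61, AMOTL2 and AJUBA with SCC higher and ANKRD1 and TEAD1 with SCC lower, against 27.8% of all tested genes. The 95% interval of each of the 10 fitted differences lay within 1.5-fold in either direction. The median log2 fold change of SCC over RCC was 0.02 for the 10 genes and 0.00 for all tested genes. In bulk libraries, fewer cells expressing a gene and less RNA per cell cannot be told apart.

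**Figure D1:**
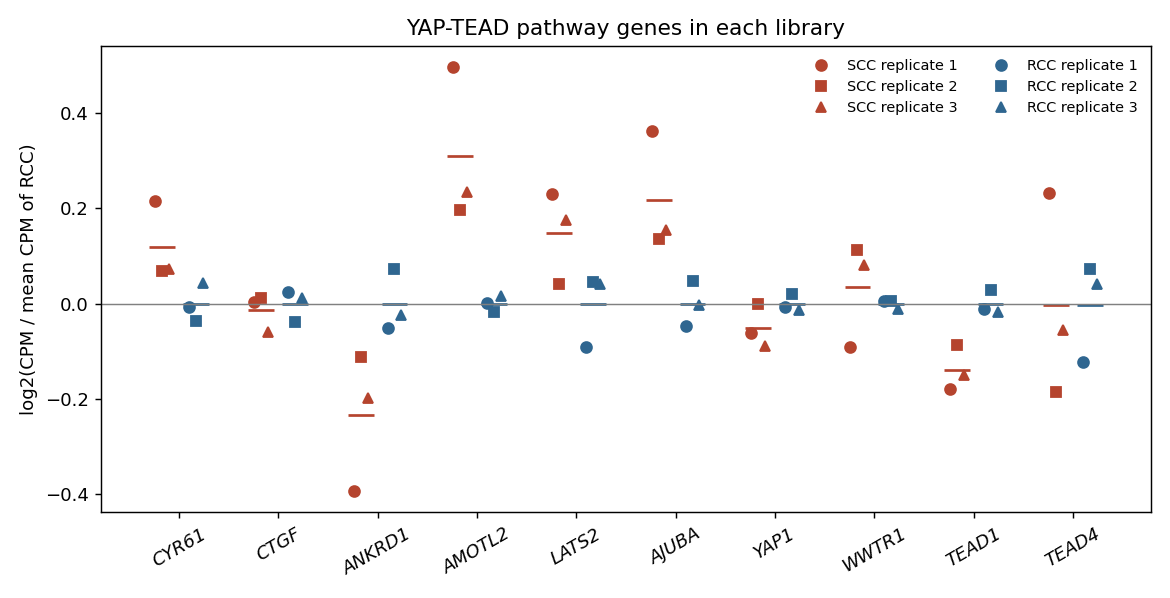
Log2 ratio of each library's CPM to the mean of the 3 RCC libraries for the 10 genes, with SCC in red, RCC in blue, symbols for replicates and bars for the mean of the log2 values. AMOTL2 and AJUBA lie above the RCC libraries in all 3 SCC libraries and ANKRD1 and TEAD1 below, with SCC replicate 1 farthest from RCC in each of these 4 genes.

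The order of the levels, compared per length as FPKM over the 6 libraries, set the targets CYR61, ANKRD1 and CTGF far above the other genes. CYR61 was highest at a mean of 1065 ± 61.2 FPKM (SD, n = 6) and ranked 17 among the 15881 tested genes. ANKRD1 followed at 202 ± 22.9 and CTGF at 148 ± 3.01, ranks 140 and 214. The next group was AMOTL2 at 41.5, AJUBA at 35.9, TEAD1 at 34.5 and YAP1 at 33.5 FPKM, where the ranges of neighbours overlapped. TEAD4 at 21.5 and WWTR1 at 20.1 overlapped in the same way, and LATS2 was lowest at 9.84 FPKM. Every other step in this order separated genes whose ranges over the 6 libraries did not overlap.

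CYR61 (ENSG00000142871, GRCh38 chromosome 1, 85580761 to 85583962, plus strand) encodes a matrix-associated ligand of integrins. Its level was 2928, 2642 and 2650 CPM in SCC replicates 1 to 3 and 2509, 2456 and 2597 CPM in RCC replicates 1 to 3. All 3 SCC libraries were above all 3 RCC libraries, as for 14.4% of tested genes in this direction, and the lowest SCC library exceeded the highest RCC library only slightly. The fitted fold was 1.09 with a 95% interval from 0.986 to 1.20 and an adjusted p of 0.311. Without SCC replicate 1 the log2 fold change was 0.07, against 0.12 with it.

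CTGF (ENSG00000118523, chromosome 6, 131948176 to 131951373, minus strand), the paralog of CYR61, was at 350, 352 and 335 CPM in SCC and at 355, 340 and 352 CPM in RCC. The ranges overlapped in part, with the lowest library in SCC and the highest in RCC. Its fold of 0.990 had the interval 0.903 to 1.09 and an adjusted p of 0.912. Among CYR61 and CTGF together, CYR61 took 88.9%, 87.7% and 88.3% of the summed FPKM in SCC and 87.1%, 87.3% and 87.6% in RCC. That share, the direct comparison of the paralogs, differed by 0.986 percentage points between groups that did not overlap. The two-sided exact permutation test gave p = 0.1, the smallest that 3 against 3 libraries allow, and 0.450 after adjustment over the 9 shares and sums tested. Of the other CCN genes, NOV (CCN3) had a mean CPM of 22.2 ± 0.108 in the SCC and 20.0 ± 0.690 in the RCC libraries (SD, n = 3, adjusted p 0.357 by edgeR), and WISP1, WISP2 and WISP3 were below 1 CPM in every library and not tested.

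ANKRD1 (ENSG00000148677, chromosome 10, 90912096 to 90921276, minus strand), a nuclear ankyrin-repeat protein, was at 330, 401 and 378 CPM in SCC and 418, 456 and 426 in RCC. Every SCC library was below every RCC library, which held for 13.4% of tested genes in this direction. The log2 fold change was -0.23 (95% interval -0.41 to -0.05) with an adjusted p of 0.161. It thus lay on the opposite side of 0 from CYR61, and over the 6 libraries the Pearson r of their log2 CPM was -0.958, a description of 6 points that share SCC replicate 1 as an extreme. ANKRD1 was called lower in 1 of 15 alternatives. That fit joined the replicate block and the offset for GC content (log2 fold change -0.17, adjusted p 0.0405). In it 6.78% of all tested genes were called. The fit without SCC replicate 1 gave a log2 fold change of -0.15 (adjusted p 0.0556).

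AMOTL2, LATS2 and AJUBA act back on the pathway. AMOTL2 (ENSG00000114019, chromosome 3, 134355874 to 134375479, minus strand), an angiomotin that binds YAP and holds it in the cytoplasm and is itself a target, was at 314, 255 and 262 CPM in SCC and 223, 220 and 225 in RCC. The RCC libraries lay within 5 CPM of each other and the SCC libraries were all higher. Its log2 fold change of 0.31 (0.13 to 0.50) was the highest of the 10 genes and its adjusted p was 0.0832. AMOTL2 was called higher in 6 of 15 alternatives, among them DESeq2 (adjusted p 0.0322), the fit without SCC replicate 1 (log2 fold change 0.21, adjusted p 0.00302), that without SCC replicate 2 (0.36, 0.0349) and the GC offset (0.19, 0.0198). In the fits without any other 1 library the adjusted p ran up to 0.283.

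AJUBA (ENSG00000129474, chromosome 14, 22971174 to 22982642, minus strand), a LIM-domain protein that binds and inhibits LATS kinases, was at 256, 219 and 222 CPM in SCC and 193, 206 and 199 CPM in RCC. The groups did not overlap, the log2 fold change was 0.22 (0.06 to 0.39) and the adjusted p was 0.155. No alternative called AJUBA, and the lowest adjusted p was 0.0586, without SCC replicate 1. LATS2 (ENSG00000150457, chromosome 13, 20973032 to 21061547, minus strand), the kinase that phosphorylates YAP and TAZ and is induced by them, was at 61.3, 53.8 and 59.1 CPM against 49.1, 54.0 and 53.8 CPM. SCC replicate 2 fell within the RCC range, and the log2 fold change of 0.15 (-0.03 to 0.33) had an adjusted p of 0.312.

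The coactivator genes were level. YAP1 (ENSG00000137693, chromosome 11, 102110461 to 102233423, plus strand) was at 207, 216 and 203 CPM in SCC and 215, 219 and 214 CPM in RCC, with a fold of 0.966 (0.879 to 1.06) and an adjusted p of 0.665. WWTR1 (ENSG00000018408, chromosome 3, 149517235 to 149736714, minus strand) was at 157, 181 and 177 CPM against 168, 168 and 166 CPM, with a fold of 1.03 (0.920 to 1.14) and an adjusted p of 0.797. The 3 RCC libraries of WWTR1 lay between the lowest and the highest SCC library. Per length, YAP1 made up 61.9% ± 1.69 of the sum of YAP1 and WWTR1 in SCC and 63.3% ± 0.215 in RCC (SD, n = 3, exact permutation p 0.400). Their summed level was 53.2 ± 2.45 and 54.0 ± 0.761 FPKM.

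TEAD1 (ENSG00000187079, chromosome 11, 12674591 to 12944483, plus strand) was at 330, 352 and 337 CPM in SCC and 371, 381 and 369 CPM in RCC. The groups did not overlap, and the log2 fold change was -0.14 (adjusted p 0.248). With the GC offset it was -0.05. TEAD4 (ENSG00000197905, chromosome 12, 2959330 to 3040673, plus strand) was at 57.4, 43.0 and 47.0 CPM against 44.9, 51.4 and 50.3 CPM. SCC held both its highest and its lowest library, and the log2 fold change of 0.01 (adjusted p 0.965) became -0.18 under the GC offset and -0.12 once SCC replicate 1 was left out, not called in either. Of the summed FPKM of TEAD1 to TEAD4, TEAD1 took 45.9% ± 4.46 in SCC and 48.5% ± 1.11 in RCC, TEAD4 29.8% ± 2.44 and 28.7% ± 1.70, and TEAD2 and TEAD3 the rest (SD, n = 3). The TEAD1 share differed by -2.55 points with all libraries, by -0.200 without SCC replicate 1 and by -4.64 without SCC replicate 2. The exact permutation p was 0.600 for the TEAD1 share, and after adjustment it was 0.675 for each of the 4 shares.

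**Figure D2:**
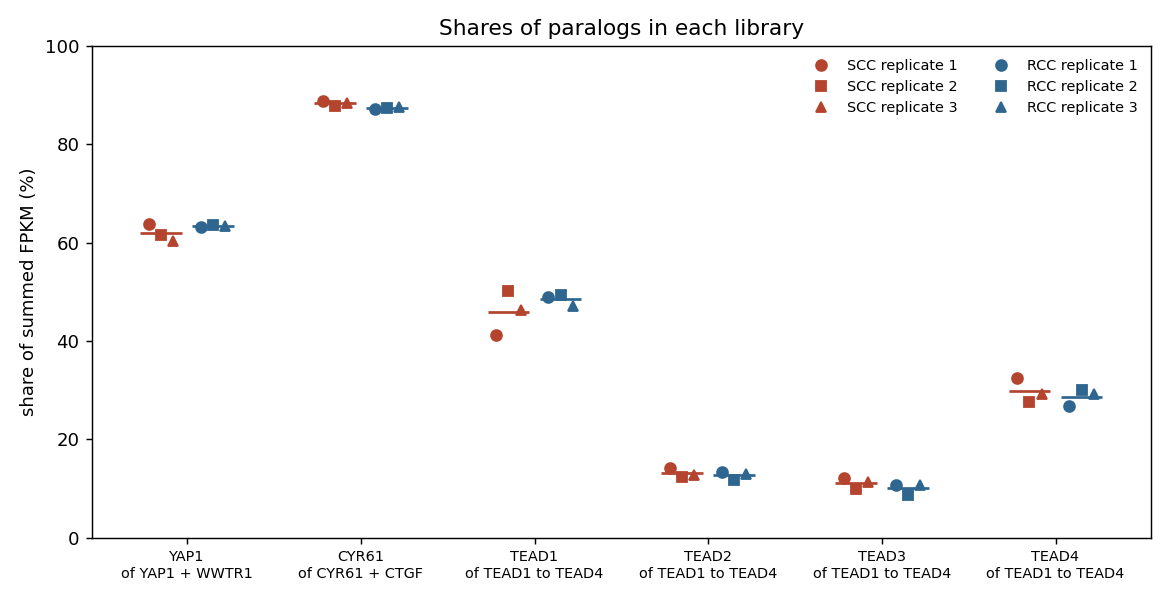
Share of the summed FPKM taken by each paralog in each library, in percent, with SCC in red, RCC in blue and bars for the mean of 3 libraries. YAP1 takes 60.4% to 63.7% of YAP1 plus WWTR1 in all 6 libraries, and SCC replicate 1 has the lowest TEAD1 share at 41.3%.

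The departures of SCC replicate 1 followed GC content among the 10 genes. Its log2 CPM minus the mean of SCC replicates 2 and 3 was 0.35 for TEAD4, whose longest transcript has 60.4% GC, and 0.28 for AMOTL2 at 56.7%. It was -0.24 for ANKRD1 at 43.3% and -0.19 for WWTR1 at 40.9%. Over the 10 genes Spearman's rho was 0.93, a description of genes that share 1 library. With the GC offset the log2 fold changes nearest to 0 were 0.01 for YAP1 and -0.05 for CTGF and TEAD1, and those farthest were 0.19 for AMOTL2, -0.18 for TEAD4 and -0.17 for ANKRD1.

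**Figure D3:**
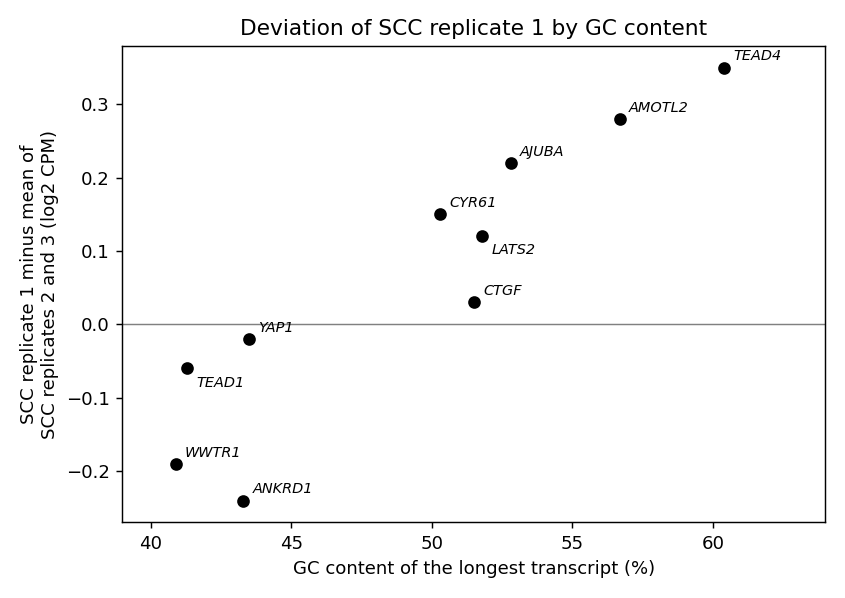
Difference in log2 CPM between SCC replicate 1 and the mean of SCC replicates 2 and 3 against the GC content of the longest transcript in percent, 1 point per gene. The 4 genes under 45% GC lie below 0 and the 6 genes above 50% GC lie above 0.

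Of a list of 22 target genes shared by many tumour types, which includes CYR61, CTGF, ANKRD1, AMOTL2 and LATS2, 1 was called higher in SCC and 0 were called lower, against 1.69% and 0.378% of all tested genes. The unadjusted p was below 0.05 for 6 higher and 1 lower gene, against 11.4% and 8.27% of all tested genes in these directions. DESeq2 called 3 higher (GADD45A, AMOTL2 and MYOF) and 0 lower, against its 4.09% in either direction. The median log2 fold change of the list was 0.10, against 0.00 for all tested genes. The called gene was GADD45A (ENSG00000116717, chromosome 1, 67685061 to 67688338, plus strand), a growth-arrest and DNA-damage-inducible gene that is also a p53 target. It was at 58.5, 50.6 and 50.6 CPM in SCC and 23.5, 28.1 and 27.5 CPM in RCC. No SCC library came near the RCC range, the fold was 2.02 (1.74 to 2.35) and the adjusted p was 3.0e-04. GADD45A was called in all 15 alternatives, with log2 fold changes from 0.93 to 1.06.

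MYOF, a membrane-repair protein of the ferlin family, had a mean CPM of 839 ± 3.02 in the SCC and 713 ± 19.6 in the RCC libraries (SD, n = 3, adjusted p 0.0710 by edgeR). The list's count depended on SCC replicates 1 and 2. Without SCC replicate 1 there were 4 higher (AMOTL2, GADD45A, MYOF and TGFB2), where 6.03% of all tested genes were called, and without SCC replicate 2 there were 3 (AMOTL2, GADD45A and NUAK2), where 5.16% were. CCDC80, a secreted matrix protein, was at 33.3 ± 2.28 against 26.6 ± 1.81 CPM (SD, n = 3, adjusted p 0.102).

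**Figure D4:**
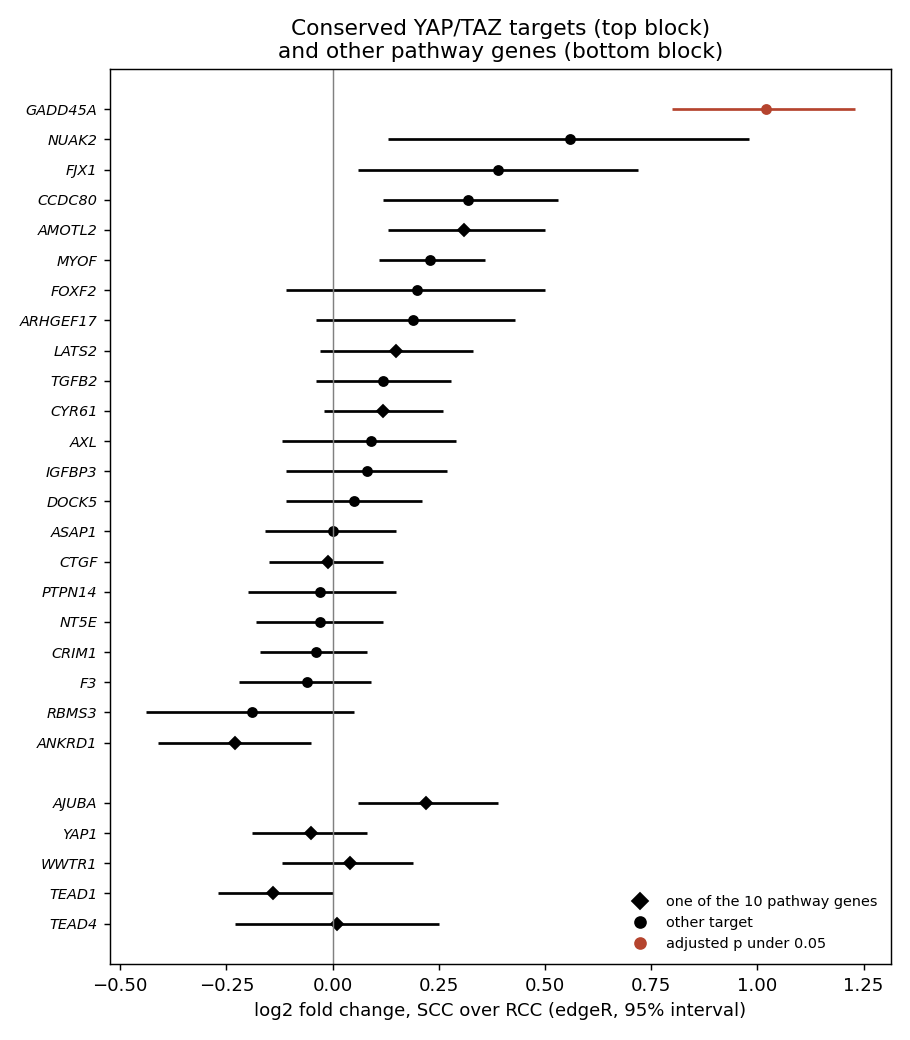
Log2 fold change of SCC over RCC with its 95% interval from edgeR for the 22 conserved targets and for AJUBA, YAP1, WWTR1, TEAD1 and TEAD4, with diamonds for the 10 genes described and red for an adjusted p under 0.05. GADD45A, at 1.02, is the only called gene, and its interval starts at 0.80, above the fitted value of every other gene shown.

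No gene of the Hippo cassette was called by edgeR, against 2.07% of all tested genes. Among 18 tested kinases and adaptors, the unadjusted p was below 0.05 for 1 higher and 1 lower gene. Of all tested genes, 11.4% and 8.27% were below it in these directions. DESeq2 called 0 of the 18, against 4.09% of all tested genes, and their median log2 fold change was -0.08. MOB1A, a scaffold that activates LATS kinases, had a mean CPM of 191 ± 11.5 in the SCC and 220 ± 3.86 in the RCC libraries (SD, n = 3, adjusted p 0.149), and it was called lower without SCC replicate 1 (log2 fold change -0.15, adjusted p 0.0472). With the GC offset the value for MOB1A was -0.06 (adjusted p 0.488). Its paralog MOB1B lay at the same log2 value (-0.20, adjusted p 0.278), and at -0.02 with the GC offset (0.900). MINK1, a MAP4K-family kinase, was at 209, 161 and 156 CPM in SCC and 150, 144 and 152 CPM in RCC. Its log2 fold change of 0.24 (adjusted p 0.238) was 0.09 without SCC replicate 1, the highest library, and 0.04 with the GC offset.

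Upstream and junction regulators were also not called by edgeR, with an unadjusted p below 0.05 for 4 higher and 0 lower of 20 tested genes (11.4% and 8.27% of all tested genes), and a median log2 fold change of 0.05. DESeq2 called 2 of them higher, AMOTL2 and WWC3, against 4.09% of all tested genes. WWC3, a KIBRA-family scaffold, had a mean CPM of 152 ± 12.0 in the SCC and 124 ± 0.929 in the RCC libraries (SD, n = 3). Its groups did not overlap (log2 fold change 0.30, adjusted p 0.0612), and WWC3 was called higher without SCC replicate 1 (0.00239) and without SCC replicate 2 (0.0424). MARK4 was at 26.3 ± 5.13 against 21.1 ± 1.16 CPM (adjusted p 0.211), a log2 fold change of 0.32 that was 0.15 without SCC replicate 1. FRMD6, a FERM-domain protein, was at 305 ± 11.2 against 330 ± 15.2 CPM (SD, n = 3, adjusted p 0.339).

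Of the coactivators, TEADs and VGLL cofactors, 8 were tested and 0 called by edgeR or DESeq2, against 2.07% and 4.09% of all tested genes. An unadjusted p below 0.05 was reached by 1 higher and 1 lower gene, against 11.4% and 8.27% of all tested genes. VGLL3, a TEAD-binding cofactor, was at 10.6, 13.7 and 13.3 CPM in SCC and 9.17, 9.89 and 9.17 CPM in RCC. All SCC libraries were higher (log2 fold change 0.41, adjusted p 0.137), and VGLL3 was called without SCC replicate 1 (0.52, 0.00740). VGLL4, which competes with YAP for TEADs, was at 47.5 ± 5.32 against 41.9 ± 2.30 CPM (adjusted p 0.299), with a log2 fold change of 0.18 that was 0.09 without SCC replicate 1. TEAD3 was at 24.6 ± 4.10 against 23.0 ± 2.55 CPM (SD, n = 3, adjusted p 0.698), and its log2 fold change of 0.10 was -0.03 without SCC replicate 1. VGLL1 was at 0 in all 6 libraries.

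In the same fit 5 of 7 AP-1 subunit genes, FOS, FOSB, JUN, JUNB and JUND, were called higher and 0 lower, against 1.69% and 0.378% of all tested genes, with a median log2 fold change of 1.36. FOS, FOSB and JUNB were called in all 15 alternatives and JUN in 14, but JUND in 9. JUND lost its call in the 3 limma fits (adjusted p 0.0831 to 0.291) and without RCC replicate 1 (0.0888), 2 (0.0643) or 3 (0.0702). Of 12 immediate early and heat shock genes known to respond to cell dissociation, 4 of which are also AP-1 subunits, 11 were called higher. Of these HSPA1B was called in 8 of 15 alternatives, IER3 in 10 and ZFP36 in 14, and HSPA1B lost its call without SCC replicate 3 (0.0533) and without RCC replicate 1 (0.161), 2 (0.0953) or 3 (0.128). Their summed level was 1404 to 1836 CPM in SCC and 668 to 701 CPM in RCC, and the part of sorting in any difference of the pathway genes was not tested. CYR61 and CTGF are themselves known as immediate early genes. Neither was called, with folds of 1.09 (95% interval 0.986 to 1.20) and 0.990 (0.903 to 1.09). Whether sorting changed their levels was not tested.

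**Figure D5:**
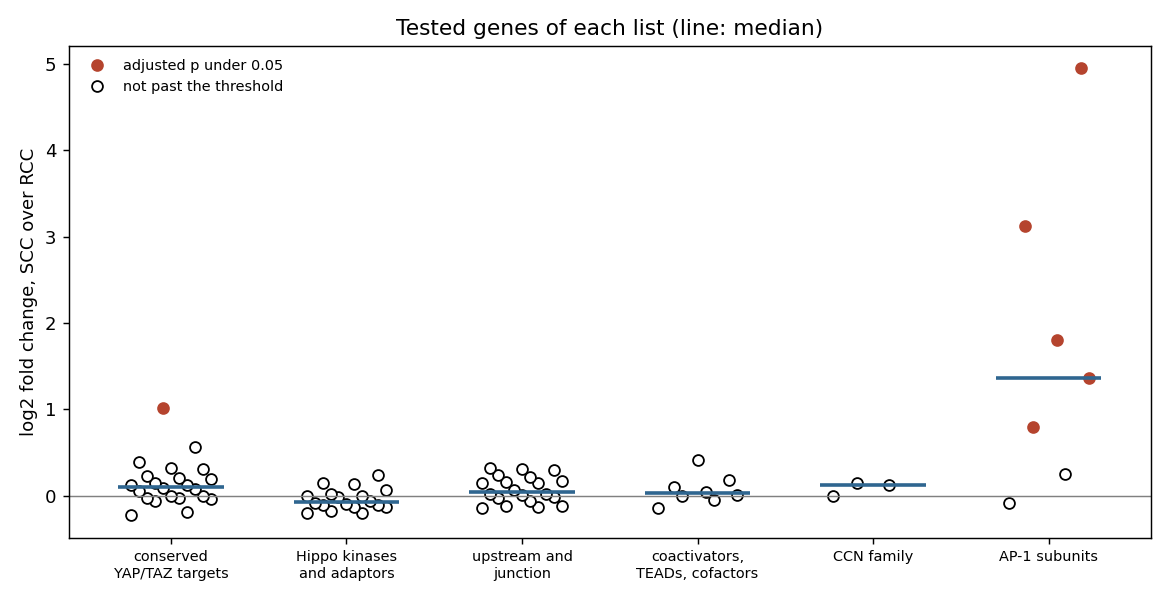
Log2 fold change of SCC over RCC for every tested gene of 6 lists, with filled red points for an adjusted p under 0.05, open points for the rest and a blue line for the median. The called genes are GADD45A among the targets and 5 of the 7 AP-1 subunits, and all other points lie between -0.23 and 0.56.

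The genes most like CYR61 over the 6 libraries, by Pearson r of log2 CPM among 10913 genes at a mean of at least 5 CPM, were PRR14 (0.998), LAMA5 (0.997), SH2B2 (0.996), CASKIN2 (0.995) and CTBP1 (0.995). Their longest transcripts have 60.4% to 68.3% GC, and none was called. Of the other pathway genes AMOTL2 came closest, at an r of 0.961 and rank 271, and CTGF was at 0.103. Each r only describes 6 libraries. SCC replicate 1 was the highest library for both CYR61 (2928 CPM) and AMOTL2 (314 CPM). For CTGF, whose own range over the libraries was narrow, the most similar genes were ZFAND4 (0.950), SHISAL1 (0.944), CSAD (0.942), FAM157A (0.939) and ZNF830 (0.938). None of these was called either.

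Of 104 tested genes with at least 2 matches to the TEAD letters in a 250-base window, 2 were called higher (EGR2 and RSRC2, named after their values were seen) and 0 lower. That is 1.92%, close to the 2.03% of the 10886 tested genes with a window, and nothing is read from it about these genes. Binding of a factor was not measured.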

How the data were processed

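RNA was extracted with TRIzol and sequenced from 6 libraries made with an NEBNext Ultra kit, per the labels' protocols. HISAT2 2.0.5 and featureCounts 1.5.0-p3 are named in the submitters' processing notes, and the genome build and use of strand are not given in the sources used here. The deposited tables hold, for each gene, a read count and an FPKM value, which the authors scaled by gene length and library. In both, all 58735 rows matched GENCODE release 29 (GRCh38) by ID and position, and 27 names turned into dates were restored. Since the use of strand is unknown, CTGF, YAP1 and WWTR1, which share exonic bases with an antisense gene, and AMOTL2 and AJUBA, which share some with a gene on their own strand, are uncertain to that extent.

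Counts were filtered (filterByExpr, minimum count 10), scaled by TMM and tested in edgeR 4.0.16 (R 4.3.3) with the quasi-likelihood F test on group, adjusted by Benjamini-Hochberg over 15881 genes. Intervals at 95% use the test's standard error and degrees of freedom. The test was checked on simulated data with the same dispersion for every gene, without the GC trend of SCC replicate 1. Shares were computed per library from FPKM. Alternatives were DESeq2 1.42.0, RLE scaling, no count filter, limma 3.58.1 on log2-transformed FPKM with a pseudocount of 1 or 0.1 (filter: 3 libraries reaching FPKM 1) or of 1 with no filter, a block on replicate number, and leaving out every library in turn. An offset for GC content of the longest GENCODE transcript (lowess, span 0.3) was added after seeing the data. The 10 genes and the lists were chosen with earlier results of these data known. Named besides the 10 are genes called in a list, or up to 3 with the smallest p, and the 5 genes most like CYR61 and CTGF. Promoter sequences are RefSeq's (GRCh38.p14).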

Additional observations from a re-analysis of the deposited data

How the results depend on the processing

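Of 150 values of the 10 genes under 15 alternatives each, 133 kept their direction and side of the threshold, 7 passed the threshold and 10 reversed in sign, none of them called. The planned GC offset from a genome was not run, because only transcript sequences were used, and the version from transcripts replaced it. Each of the 10 genes had at least 841 counts in every library. The list members left untested by the count filter had few or no counts, such as VGLL1 with 0 in every library. Whether more depth would make them testable is not known.

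Against 268 higher and 60 lower genes in all, DESeq2 gave 480 and 170, every gene with at least 1 count 995 and 315, and the GC offset 522 and 244. The FPKM values in limma gave 130 and 36 on log2(FPKM + 1), 117 and 34 on log2(FPKM + 0.1), and 48 and 1 without a filter. Deviations of same-numbered libraries from their group means were nearly uncorrelated (-0.008, 0.022 and -0.075). Differently numbered libraries were not compared, so whether same-numbered ones shared a culture or sort day is not known. With the replicate block 106 genes were lower and the higher count stayed within 1.5 times, and with block and GC offset there were 632 and 444. Leaving out 1 library gave 99 to 642 higher and 8 to 343 lower genes, highest without SCC replicate 1. The cause was not tested.

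Against 0 of the 10 genes called higher, 1 (AMOTL2) was called by DESeq2, with every gene with at least 1 count, and with the GC offset with or without the block, and 0 to 1 without 1 library. Against 0 lower, 1 (ANKRD1) was called with block and GC offset. Of all genes tested, 2.07% were called in the main fit, 4.09% by DESeq2 and 3.48% with every gene with at least 1 count. The share was 4.83% with the GC offset, 6.78% with block and GC offset, and 0.657% to 6.03% without 1 library. Conserved targets called higher numbered 3 by DESeq2, 4 with every gene with at least 1 count and 5 with the GC offset with or without the block, and 1 to 4 without 1 library, against 1. Lower, 1 (ANKRD1) was called with block and GC offset. Among Hippo kinases, 1 (MAP4K5) was called higher with the GC offset with or without the block, and 0 to 1 (MOB1A) lower without 1 library. Among upstream regulators, 2 (AMOTL2 and WWC3) were called higher by DESeq2, with every gene with at least 1 count and with the GC offset with or without the block, and 0 to 2 without 1 library. Among coactivators, TEADs and cofactors, 1 (VGLL3) was called higher with the GC offset with or without the block, and 0 to 1 without 1 library. The cause was not tested.

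Reversed log2 fold changes were all uncalled. YAP1 was at 0.01 with the GC offset with or without the block (adjusted p 0.923 and 0.936), and WWTR1 at -0.02 without SCC replicate 2. TEAD4 was at -0.0064 on log2(FPKM + 1) with or without a filter, -0.0069 on log2(FPKM + 0.1), -0.18 with the GC offset, -0.17 with block and GC offset, -0.12 without SCC replicate 1 and -0.06 without RCC replicate 1, in a range of -0.12 to 0.08 without 1 library. TEAD3 was at -0.08 with the GC offset with or without the block and -0.03 without SCC replicate 1, in a range of -0.03 to 0.20 without 1 library. Of 63 values of shares and sums, 59 kept their direction. Without 1 library the TEAD2 share difference (0.413 points with all libraries) ran from -0.109 to 0.799, reversed without SCC replicate 1 and without RCC replicate 2 (-0.0466). That of TEAD1 (-2.55) ran from -4.64 without SCC replicate 2 to -0.200 without SCC replicate 1. That of TEAD4 (1.11) ran from -0.209 to 2.19, and the difference in summed FPKM of YAP1 and WWTR1 (-0.885) from -2.12 to 0.325, both reversed without SCC replicate 1.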
